A study of Mus musculus with 2 samples.

Results

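The 4 Hox clusters, HoxA to HoxD, were examined in the list of DNaseI sites of 1 mouse lymphoma, T6. A site belonged to a cluster when it overlapped the mm9 limits set for that cluster: chr6:52100000-52215000 for HoxA, chr11:96050000-96235000 for HoxB, chr15:102750000-102875000 for HoxC and chr2:74500000-74615000 for HoxD. By this rule 41 of 53593 sites lay in the clusters, 22 of them in HoxB, 10 in HoxA, 5 in HoxC and 4 in HoxD. The members are 38 Hox genes, assigned to the clusters by name (10 in HoxA, 10 in HoxB, 9 in HoxC and 9 in HoxD). The rule uses gene names and positions and no value of the list, though it was written with earlier results of these data known.

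T6 is an Eμ-myc tumour with the genotype Arf-/- Trp53+/+ on the C57/Bl6 strain, in which an immunoglobulin enhancer drives Myc in B cells. Its cells were labelled B cells from lymph nodes, received no treatment, and came from nodes strained into single cells with no purification step. The series holds 2 samples of this tumour, the DNaseI library and its input, and the list of sites of the former was used. DNaseI cuts DNA where nucleosomes are loose or missing, so a site marks accessible chromatin. The list gives a position and a width for each site but no signal, read count or depth. Without a replicate no p-value is given, and all intervals are 95% intervals that cover counting error only. The cell label could not be set against marker genes, since sites were not assigned to genes.

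Hox genes encode homeodomain transcription factors that set the identity of body segments along the head-to-tail axis. In mammals they lie in 4 clusters, and within a cluster the genes follow the order of their group numbers, with low numbers active early and towards the head and group 13 late and towards the tail. Polycomb complexes keep unused Hox genes silent over wide domains, while trithorax proteins such as Kmt2a hold active ones open. In blood, HoxA and HoxB genes work in stem and progenitor cells (Hoxb4 and Hoxa9 are the best studied, and Hoxa9 is also a leukaemia gene), whereas HoxD genes are little used.

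Gene order came from RefSeq's table for GRCm38.p6, a different assembly, which listed all 38 members. None of its positions was set against the mm9 sites. Hoxb13, Hoxc13 and Hoxd13 stand at the low-coordinate end of their clusters and Hoxa13 at the high-coordinate end. The members spanned 98.5 kb for HoxA, 173.9 kb for HoxB, 115.7 kb for HoxC and 96.9 kb for HoxD in that table, against 115, 185, 125 and 115 kb between the mm9 limits. The next protein-coding genes outside are Skap2 and the homeobox gene Evx1 beside HoxA, Ttll6 and the T cell adaptor gene Skap1 beside HoxB, Calcoco1 and the DNA repair gene Smug1 beside HoxC, and the homeobox gene Evx2 and Mtx2 beside HoxD. A single site was not assigned to a single Hox gene, because an mm9 annotation was not used here.

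The DNA at the ends of HoxA and HoxD is shown first, because sites in these clusters are described below by the end they lie nearer to. The sequences are RefSeq promoters of build GRCm38.p6, 5′ to 3′, giving the 250 bases before the start of the gene. Hoxa13 (minus strand, chr6:52260881-52261130) and Hoxa2 (minus strand, chr6:52164832-52165081) stand for the 2 ends of HoxA, and Hoxd13 (plus strand, chr2:74667975-74668224) and Hoxd1 (plus strand, chr2:74762730-74762979) for those of HoxD. Capitals mark each CG dinucleotide.
Hoxa13: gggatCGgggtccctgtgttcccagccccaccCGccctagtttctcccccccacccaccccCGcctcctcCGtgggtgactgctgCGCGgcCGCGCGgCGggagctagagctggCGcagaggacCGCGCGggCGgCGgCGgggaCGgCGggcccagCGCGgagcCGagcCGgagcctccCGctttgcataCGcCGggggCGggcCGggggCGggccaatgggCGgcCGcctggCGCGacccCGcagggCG
Hoxa2: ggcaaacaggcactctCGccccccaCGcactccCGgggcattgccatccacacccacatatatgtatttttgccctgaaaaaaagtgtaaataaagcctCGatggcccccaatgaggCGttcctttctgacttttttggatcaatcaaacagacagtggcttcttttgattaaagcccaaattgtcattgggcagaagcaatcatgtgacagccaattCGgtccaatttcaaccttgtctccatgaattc
Hoxd13: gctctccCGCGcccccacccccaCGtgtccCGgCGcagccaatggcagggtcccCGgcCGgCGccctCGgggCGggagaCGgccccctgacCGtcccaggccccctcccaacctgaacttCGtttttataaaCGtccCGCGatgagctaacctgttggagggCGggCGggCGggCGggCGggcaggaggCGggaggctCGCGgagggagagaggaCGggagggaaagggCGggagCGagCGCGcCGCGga
Hoxd1: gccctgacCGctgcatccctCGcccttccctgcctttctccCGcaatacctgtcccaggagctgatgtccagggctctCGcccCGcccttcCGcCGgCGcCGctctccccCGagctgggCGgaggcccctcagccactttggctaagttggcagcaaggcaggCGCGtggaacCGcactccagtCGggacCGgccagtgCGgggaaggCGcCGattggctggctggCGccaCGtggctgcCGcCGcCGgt
The printed stretch held 35 CG dinucleotides at Hoxa13, 6 at Hoxa2, 31 at Hoxd13 and 24 at Hoxd1. The 2 printed promoters of HoxA thus differed widely in CG content, and those of HoxD less so. Each is a single promoter and does not describe the CG content of its end of the cluster. Counted with the 50 bases after the start, Hoxa5 had 29 and Hoxa6 26, whereas Hoxa9 had 4 and Hoxa11 15.

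Hoxb1, at the low-number end of HoxB, is shown because the part of HoxB nearest that end was empty of sites. Its promoter (plus strand, chr11:96365508-96365757 of GRCm38.p6) is known for repeats through which Hoxb1 protein and its partner Pbx act on the gene itself. Capitals mark the match to TGATNNAT, a short form of the joint PBX-HOX motif, which lay 162 to 155 bases before the start.
Hoxb1: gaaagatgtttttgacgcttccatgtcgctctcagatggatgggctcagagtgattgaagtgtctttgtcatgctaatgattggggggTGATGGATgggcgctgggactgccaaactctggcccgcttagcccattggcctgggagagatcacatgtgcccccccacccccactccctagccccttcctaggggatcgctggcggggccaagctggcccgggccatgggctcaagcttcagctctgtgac

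Promoters were listed for 22 of the 38 members, with 24 starts: 10 in HoxA, 3 in HoxB, 1 in HoxC and 10 in HoxD. Over the full entries, which run from 250 bases before to 50 bases after the start, the Hox starts had a median of 14.5 CG dinucleotides (range 4 to 45), against 7 over all 32851 starts in the table. At least 20 were present in 11 of the 24 (45.8%), against 26.5% of all starts. The medians were 17.5 in HoxA and 20 in HoxD. The 3 HoxB entries, Hoxb8, Hoxb4 and Hoxb1, had 13, 14 and 10, and Hoxc4 had 9. HoxB and HoxC were too thinly represented for the clusters to be ordered by CG content.

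Searched on both strands, TGATNNAT was found in 4 of the 24 Hox starts (16.7%; Hoxb1, Hoxb8, Hoxa2 and 1 start of Hoxd11) and in 8.85% of all starts. The E-box CACGTG, the sequence that Myc and its partner Max bind, was found in 5 (20.8%) and in 7.15% of all starts. Those 5 were all in HoxD, at Hoxd13, Hoxd11, Hoxd10, Hoxd4 and Hoxd1. CACGTG contains a CG, so its count and the CG count are not separate measures. A match describes letters in this window and shows no binding.

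HoxB held the most sites and the largest covered share of the 4 clusters. Its 22 sites (13.8 to 33.3) covered 18548 bp, which was 10.03% of the cluster, and came to 11.9 sites per 100 kb (7.45 to 18.0). HoxA followed with 10 sites (4.80 to 18.4), 4.79% covered and 8.70 sites per 100 kb (4.17 to 16.0). HoxC had 5 sites (1.62 to 11.7), 1.52% covered and 4 per 100 kb (1.30 to 9.33). HoxD had 4 sites (1.09 to 10.2), 1.17% covered and 3.48 per 100 kb (0.948 to 8.91). HoxB thus held 53.7% of the sites and 67.9% of the covered bases on 34.3% of the combined length.

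Of the 6 pairs of clusters, 2 had densities whose ratio had an interval above 1. HoxB was 2.97 times as dense as HoxC (1.10 to 10.05) and 3.42 times as dense as HoxD (1.16 to 13.6). Neighbours in the order were not separated by counting error. HoxB to HoxA gave 1.37 (0.621 to 3.23), HoxA to HoxC 2.17 (0.677 to 8.11) and HoxC to HoxD 1.15 (0.248 to 5.80). HoxA to HoxD gave 2.50 (0.721 to 10.9). These intervals were not adjusted for the number of pairs. The order of the first 2 turned with the limits: drawn in by 20 kb, HoxA had 8 sites in 75 kb (10.7 per 100 kb) and HoxB 14 in 145 kb (9.66 per 100 kb).

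Set against all autosomal windows of the same length, laid end to end, HoxB and HoxA lay in the upper part of the range and HoxC and HoxD in a range that many windows reach. As many sites as HoxB, or more, were held by 2.78% of 13334 windows of 185 kb. For HoxA it was 7.84% of 21454 windows of 115 kb, for HoxC 22.3% of 19738 windows of 125 kb, and for HoxD 24.9% of the windows of 115 kb. Since 56.0% of the 115-kb windows, 49.98% of the 185-kb windows and 55.0% of the 125-kb windows held no site, even the 4 sites of HoxD exceeded the median window. Among windows with at least 1 site, the share reaching HoxB was 5.56%, that reaching HoxA 17.8%, that reaching HoxC 49.5% and that reaching HoxD 56.8%. The gene content of the windows was not matched to that of the clusters. Stretches of unknown sequence were not left out, so windows within them count as empty.

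**Figure D1:**
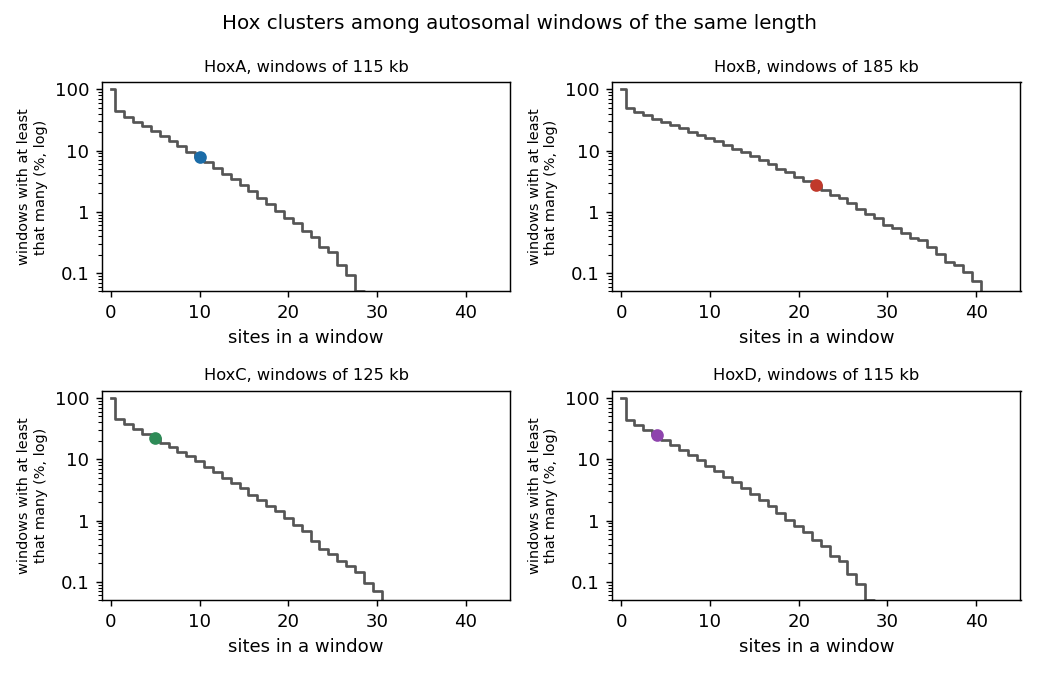
Share of autosomal windows (%, log axis) that hold at least a given number of DNaseI sites, for windows of the length of each cluster; the coloured point is the cluster. HoxB stands at 22 sites (2.78% of windows) and HoxD at 4 sites (24.9%).

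HoxA and HoxB were denser in sites than the 200 kb on each side beyond counting error, and HoxD and HoxC were not separated from their flanks by it. Around HoxA, 4 sites lay on the Skap2 side and 2 on the Evx1 side, or 1.5 per 100 kb, and the cluster was 5.80 times as dense (1.91 to 19.4). Around HoxB there were 9 sites on the Ttll6 side and 7 on the Skap1 side, or 4 per 100 kb, and the ratio was 2.97 (1.49 to 6.06). Around HoxD there was 1 site on each side, and the ratio was 6.96 (0.997 to 76.9), which rests on 4 sites against 2. Around HoxC there were 9 sites on the Calcoco1 side and 11 on the Smug1 side, and the ratio was 0.800 (0.235 to 2.20). By covered bases in place of sites, the ratio was 4.07 for HoxA, 3.28 for HoxB, 1.79 for HoxD and 0.423 for HoxC, and the value for HoxD was lower because its 2 flank sites were wide. No site of HoxC or HoxD was above the median width of the list, so their ratio was 0 for such sites. The 4 clusters together had 7.59 sites per 100 kb against 2.75 in the flanks (ratio 2.76, 1.76 to 4.32), and without HoxB the ratio was 2.29 (1.21 to 4.26). These pooled values mix clusters with ratios from 0.800 to 6.96, and their intervals treat sites as independent. Without HoxB, 20 of the 28 flank sites were those of HoxC.

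Read against the genome, a ratio this high was least common for HoxD and HoxA. Of the windows with at least 1 site, 6.96% had a ratio to their own flanks as high as that of HoxD and 7.47% one as high as that of HoxA. The share was 15.9% for HoxB and 66.2% for HoxC. The ratio of HoxC depended on how far the flanks reached. Within 100 kb of its limits there was no site on either side, against 5 inside, and with flanks of 500 kb the ratio was 0.597. That of HoxD ran from 3.48 with flanks of 100 kb to 11.6 with 500 kb, where 3 sites lay in 1000 kb, and that of HoxA was 3.48 and 4.83. With the limits drawn in by 20 kb, which moves sites of the cluster edges into the flanks, the ratio was 5.33 for HoxA, 1.68 for HoxB, 2.67 for HoxD and 1.38 for HoxC.

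**Figure D2:**
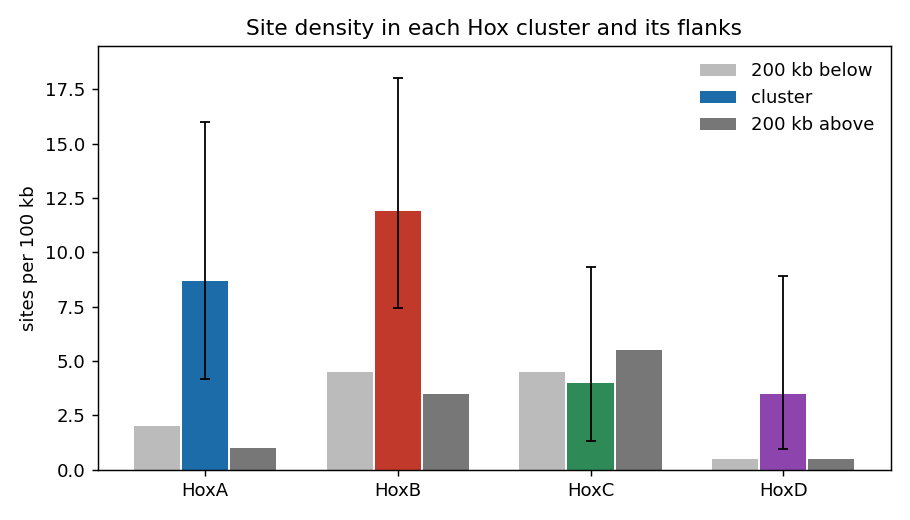
DNaseI sites per 100 kb inside each cluster (coloured bar, with exact Poisson 95% interval) and in the 200 kb below (light grey) and above (dark grey) in coordinate order. The cluster bar is the highest of the 3 in HoxA (8.70), HoxB (11.9) and HoxD (3.48), but not in HoxC (4, against 4.5 and 5.5).

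All 4 clusters were bordered by long stretches without a site. From the outermost site inside to the first site outside, the 8 gaps ran from 45.5 kb (low side of HoxB) to 181.1 kb (low side of HoxC). Gaps of 45.5 kb or more were 13.4% of the 52722 gaps on autosomes, yet they made up 81.8% of the distance between sites, so a border that falls in one is common. The first sites outside were chr6:52029174-52029698 and chr6:52253703-52253977 for HoxA, and chr11:96006772-96007506 and chr11:96299845-96300631 for HoxB. For HoxC they were chr15:102615697-102615998 and chr15:102993319-102994294, and for HoxD chr2:74416017-74417535 and chr2:74663565-74664649. Those 2 sites beside HoxD were 1519 and 1085 bp wide, each wider than every site within HoxD.

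**Figure D3:**
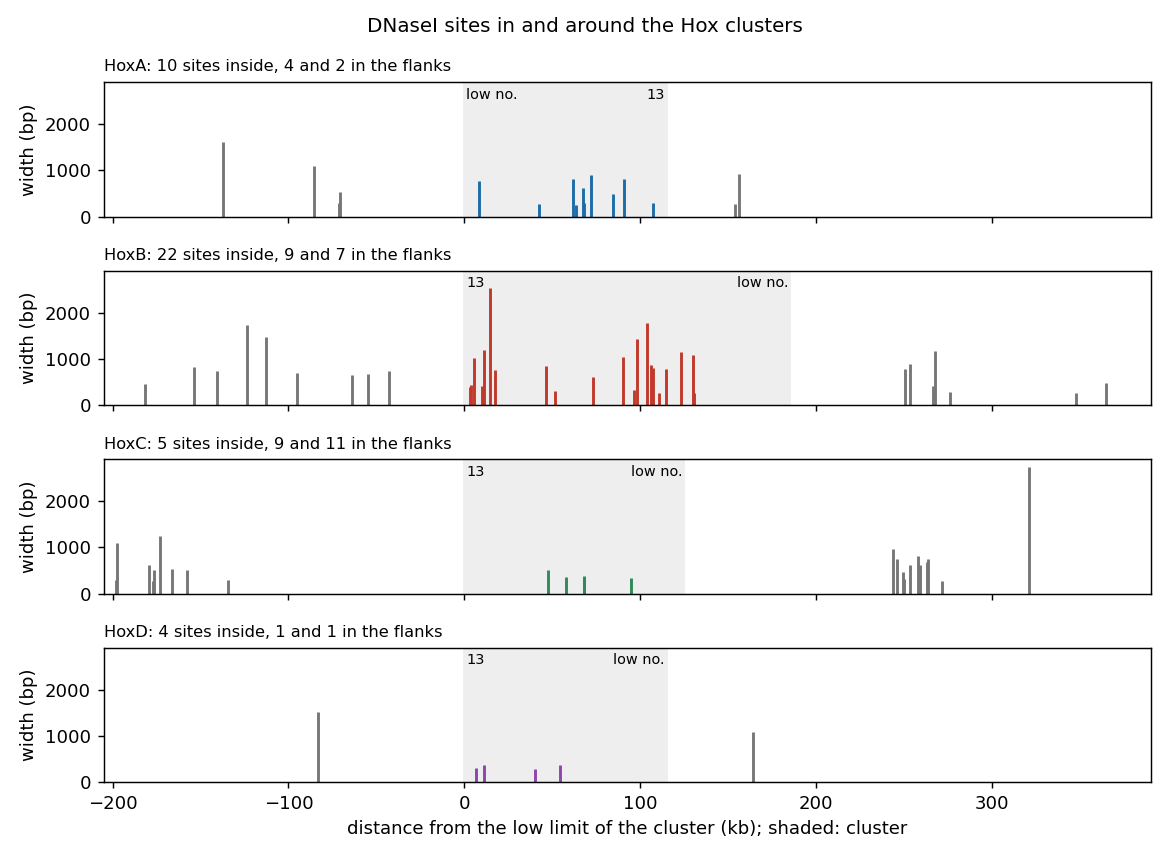
Each vertical line is 1 DNaseI site, its height the width of the site (bp) and its place the distance from the low limit of the cluster (kb); coloured lines lie inside the shaded cluster, grey ones in the 200 kb on each side. "13" marks the group 13 end and "low no." the other end; 2 HoxC sites that lie 62 bp apart are drawn as 1 line.

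HoxB, which includes the stem cell regulator Hoxb4, had 2 dense groups of sites. With sites at most 12 kb apart taken as a group, the first held 8 sites within 14.7 kb (chr11:96053028-96067713), began 3.03 kb inside the limit at the Hoxb13 end, and was covered to 47.7%. The second held 11 sites within 41.0 kb (chr11:96139689-96180723) and was covered to 23.8%. Between them lay 2 sites at chr11:96095885-96101729 and 1 at chr11:96122777-96123388. Beyond the second group, the 54.3 kb up to the limit at the Hoxb1 end held no site, and the next one lay 64.8 kb further.

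The 3 widest sites of the 4 clusters were all in HoxB. The widest, chr11:96063125-96065646, measured 2522 bp and lay in the first group, ranking 828 from the widest in the whole list. The next were chr11:96153184-96154967 with 1784 bp and chr11:96147197-96148633 with 1437 bp, both in the second group. HoxB had 8 sites over 1000 bp and the other 3 clusters had none. Without the 8 sites of the first group, HoxB would have had 14.

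HoxA, which includes Hoxa9 and its neighbours Hoxa7 and Hoxa10, had 1 dense group and 3 scattered sites. The group held 7 sites within 29.7 kb (chr6:52161351-52191003). Its members were chr6:52161351-52162163 (813 bp), chr6:52163066-52163318 (253 bp) and chr6:52166948-52167566 (619 bp), then chr6:52167646-52167931 (286 bp), chr6:52171311-52172212 (902 bp, the widest of HoxA), chr6:52184032-52184507 (476 bp) and chr6:52190187-52191003 (817 bp). The scattered ones were chr6:52108037-52108799 (763 bp), the nearest to the end of Hoxa2, chr6:52142008-52142280 (273 bp), and chr6:52207115-52207417 (303 bp), the nearest to the end of Hoxa13. The longest stretch of HoxA without a site, 33.2 kb, lay between the first 2 of these scattered sites, on the low-number side. Within the dense group, a gap of 11.8 kb, just under the 12 kb limit for a group, lay before chr6:52184032-52184507. Other limits for a group were not tried.

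HoxC and HoxD held few sites, and all were below the median width of the list. In HoxC they were chr15:102797097-102797605 (509 bp), chr15:102807439-102807790 (352 bp), chr15:102817613-102817985 (373 bp), chr15:102818048-102818379 (332 bp) and chr15:102844417-102844751 (335 bp). With sites at most 12 kb apart taken as a group, the first 4 of these formed one within 21.3 kb, covered to 7.36%. The first 47.1 kb of HoxC, at the Hoxc13 end, had none. In HoxD they were chr2:74506703-74507012 (310 bp) and chr2:74510887-74511251 (365 bp), close to the Hoxd13 limit, then chr2:74540164-74540458 (295 bp) and chr2:74553958-74554330 (373 bp). The last 60.7 kb of HoxD, up to the limit at the Hoxd1 end, had none.

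Site widths followed the same order as site numbers. The median was 795 bp in HoxB (396 to 1090, 22 sites), 547.5 bp in HoxA (273 to 817, 10 sites), 352 bp in HoxC (range 332 to 509, 5 sites) and 337.5 bp in HoxD (range 295 to 373, 4 sites), against 663 bp over the whole list. The intervals of HoxB and HoxA overlap and both hold 663 bp, and the ranges of HoxC and HoxD overlap. None of the 9 sites of HoxC and HoxD was above 663 bp (0 to 33.6%), whereas 13 of 22 were in HoxB (59.1%, 36.4 to 79.3%) and 4 of 10 in HoxA (40%, 12.2 to 73.8%). Sites under 400 bp were 8 of 9 in HoxC and HoxD (88.9%, 51.8 to 99.7%), against 30.5% of the whole list and 20.5% of the 44 flank sites (9.80 to 35.3%). Such narrow sites numbered 4 in HoxA and 6 in HoxB. How width relates to signal was not tested, since the list holds no signal.

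**Figure D4:**
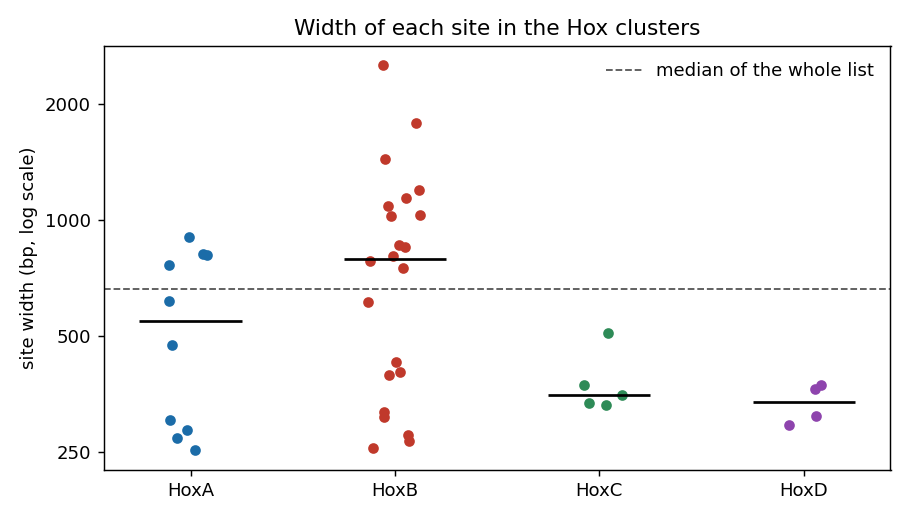
Width of each site (bp, log axis) in the 4 clusters, with the median of each cluster as a black bar and that of the whole list (663 bp) as a dashed line; points are spread sideways for clarity. All 9 points of HoxC and HoxD lie below the dashed line, and HoxB alone reaches over 1000 bp.

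Along the clusters, the sites of HoxA and HoxD lay mainly on the side of the group 13 genes, which pattern the limb ends and the rear of the body. Of the sites of HoxA, 8 were on the group 13 side of its midpoint and 2 on the low-number side (80%, 44.4 to 97.5%). In HoxD all 4 were on the group 13 side (100%, 39.8 to 100%). HoxB was split 12 to 10 (54.5%, 32.2 to 75.6%) and HoxC 2 to 3 (40%, 5.27 to 85.3%). Each of these 4 intervals includes an even split. HoxA and HoxD pooled, 12 of 14 (85.7%, 57.2 to 98.2%), do not, but that pair was chosen after the values were seen, and sites within a group are not independent.

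The split depended on where a cluster was divided. In 3 equal parts from the group 13 end, HoxA held 3, 6 and 1 sites, so most were in the middle part rather than at Hoxa13 itself. HoxB held 10, 10 and 2 sites, HoxC 0, 4 and 1, and HoxD 2, 2 and 0. The part at the low-number end held 1 of 10 sites in HoxA, 2 of 22 in HoxB, 1 of 5 in HoxC and 0 of 4 in HoxD. In HoxC the part at the group 13 end held fewer still, 0. With 5 and 4 sites, HoxC and HoxD are too sparse for a low count in 1 part to be read as a pattern.

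**Figure D5:**
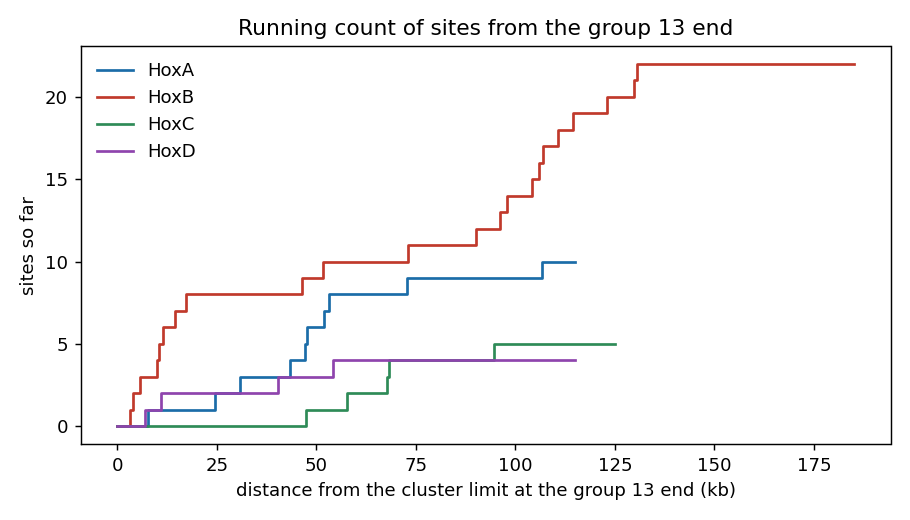
Running count of sites with distance (kb) from the cluster limit at the group 13 end, 1 line per cluster, each ending at the far limit. HoxB rises in 2 steps and then stays flat at 22 for its last 54.3 kb, and HoxD is flat at 4 over its last 60.7 kb.

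Neighbouring sites were closest in HoxB, where the median gap between sites was 3.03 kb (21 gaps), followed by 5.68 kb in HoxA (9 gaps), 9.83 kb in HoxC (4 gaps) and 13.5 kb in HoxD (3 gaps). The median over the autosomes was 6.99 kb. Gaps under 500 bp numbered 5 in HoxB, 1 in HoxA (79 bp), 1 in HoxC (62 bp) and 0 in HoxD. With sites at most 1 kb apart joined, HoxB had 15 sites, HoxA 8, HoxC 4 and HoxD 4, so the order of the first 3 was kept and the last 2 were level.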

How the data were processed

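The DNaseI library of tumour T6 was analysed. The input was not used. The authors worked with BWA 0.6.2 and SAMtools on mm9, per the submitters' processing notes. How peaks were called, at what threshold and whether against the input was not given in the sources used here. Each row of the deposited file gives chromosome, start and end of each site, with no other value. Starts were taken as counted from 0 and are printed counted from 1.

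Sites overlapping a cluster by 1 base were counted. Counts have exact Poisson intervals, shares and density ratios exact (Clopper-Pearson) intervals, and medians of 6 or more sites order-statistic intervals, all at 95%. Flanks were 200 kb on each side. Windows ran end to end over 19 autosomes from the first base up to the last site, with stretches of unknown sequence kept in. All sites of clusters with 10 or fewer, otherwise the 3 widest, and the first sites outside are named. The members, limits and lists were chosen with earlier results of these data known. Alternatives were other flanks, limits, width minima, joining and steps of windows. Calculations ran in scipy 1.17.1, pandas 2.3.3 and numpy 2.4.6 under Python 3.11.15, with plots from matplotlib 3.10.9. The window counts and the interval of the density ratio were tested on simulated data. For the ratio these were independent counts, on average larger than those of any single cluster here. That test does not cover few or clustered sites, and the flank ratios of the windows were not tested.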

Additional observations from a re-analysis of the deposited data

How the results depend on the processing

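Of 89 recomputed values, 66 stayed within counting error (for counts, shares of windows and longest stretches, within 1.5 times) and 23 moved by more. The density ratio to the flanks was above 1 in 7 of 7 alternatives for HoxA and HoxB, 6 of 7 for HoxD and 1 of 6 for HoxC. With flanks of 100 kb HoxC gave no ratio, as no site lay there. With only sites above the median width, HoxA kept 4, HoxB 13 and HoxC and HoxD 0. The ratio and covered share of HoxC and HoxD were then 0, the longest stretch without a site was 52.6 kb in HoxA, 125 kb in HoxC and 115 kb in HoxD, and 13.03% of windows reached HoxA. By covered bases 13.03% of windows reached HoxA. Of windows with at least 1 site, 17.8% reached HoxA, 5.56% HoxB, 49.5% HoxC and 56.8% HoxD. With clusters cut in 3, the group 13 share of the sites in the 2 outer parts was 83.3% in HoxB and 0% in HoxC. With limits drawn in by 20 kb, added after seeing the data, HoxB had 14 sites and HoxD 2. Also added later, among windows with at least as many sites, 4.17% had a flank ratio as high as that of HoxA and 3.89% as high as that of HoxD. The share was 20.8% for HoxB and 85.1% for HoxC. No paired analysis was possible because there was 1 library and no test. Depth and signal are unknown, so no stricter threshold by signal was run, and weak sites missed by the list cannot be counted.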
